A study of Mus musculus with 4 samples.

Results

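The synaptic adhesion and organizer genes are 35 cell-surface and secreted proteins that hold the presynaptic and postsynaptic membranes together and recruit the machinery on either side. They were taken by symbol from count tables of 24100 genes, all 35 were found, and all 35 passed the filter on low counts that 14636 genes passed. Prefrontal cortex was taken from untreated Crh-IRES-Cre mice (Jackson 012704), adult and male, in which cells active at the Crh locus (corticotropin-releasing hormone) make Cre. The data were 1 Input library and 3 libraries of translating ribosome affinity purification (TRAP), in which ribosomes tagged with EGFP are pulled down with antibodies and the RNA bound to them is sequenced. These are called IP 1, IP 2 and IP 3, and each library held RNA of 5 males. The labels gave the Cre line but not how the EGFP-tagged ribosomes were delivered. Nor did they say that the pools were of different mice, and every p-value therefore reflects the spread among these libraries alone, which may be technical.

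Synaptic organizers work as pairs across the cleft. Neurexins on the presynaptic side bind neuroligins, LRRTMs and, through secreted cerebellins, glutamate receptors of the delta type on the postsynaptic side. Receptor phosphatases of the LAR type form another presynaptic hub, whose partners include Slitrks, IL1RAPL1 and the SALMs (Lrfn genes). ELFN proteins bind metabotropic glutamate receptors across the cleft, and FLRTs bind latrophilins and UNC5 receptors.

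The Input held 14474529 counts and each IP library between 10031072 and 23548375, so 1 count was worth between 0.0436 and 0.107 CPM (counts normalised to library size after TMM scaling). Genes with any count numbered 17141 in the Input, against 14691, 13956 and 14172 in IP 1, 2 and 3. Fewer genes were thus detected in every IP library, also in IP 1, which held the most counts. For Crh the Input had 1.32 CPM, against 501, 174 and 193 CPM for IP 1, 2 and 3. Of 3 markers of GABAergic neurons 3 lay above the Input in every IP library, with a summed level of 405 CPM in the Input, against 2803, 2020 and 2707 CPM for IP 1, 2 and 3. Of 6 excitatory markers 5 lay below it in every IP library (sum 2256 CPM against 675, 1253 and 777 CPM), and of 6 astrocyte markers 5 did so (sum 2320 CPM against 1486, 2599 and 1613 CPM). Most of the astrocyte sum was the remaining marker, Slc1a2, which overlapped the Input (2122 CPM against 1380, 2457 and 1546 CPM). Of the 5 below, Aqp4 was nearly level with the Input in IP 1 and 2 (57.4 CPM against 57.0, 54.4 and 6.38 CPM). All 6 endothelial markers lay above the Input in every IP library, with sums of 30.5 CPM and of 116, 423 and 187 CPM. No excitatory, astrocyte or endothelial marker was at 0 in any library. Of 4 markers of the Vip class of interneurons 4 were called higher, with sums of 49.1 CPM in the Input, against 4939, 3218 and 3034 CPM for IP. In such bulk libraries the number of cells of a type that were captured and the RNA per cell cannot be told apart. Nor can the share of a gene's RNA bound to ribosomes, or background carried through the pull-down, be separated from them. This holds for every fold of IP against Input given here.

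Elfn1 was the 1 member of 35 that passed the test of IP against Input, and it was higher in IP. Across all genes 67 of 14636 passed (0.458%, edgeR's quasi-likelihood test with Benjamini-Hochberg adjustment, threshold 0.05), with 60 higher (0.41%) and 7 lower (0.0478%). Another 4 members were above the Input in all 3 IP libraries at an unadjusted p under 0.05 but missed the adjusted threshold, namely Nrxn3, Cbln2, Clstn2 and Clstn3. Such genes, Elfn1 included, were 5 of 35 members and 3.12% of all genes tested. Their counterparts below the Input were 0 of 35 members and 1.23% of all genes. Without regard to p, 14 members lay above the Input in all 3 IP libraries (40.0%, against 19.7% of all genes), 3 lay below it in all 3 (24.1% of all genes) and 18 overlapped it. These shares are not like for like. Members were chosen with earlier results of these data known, and all genes were not matched to them in level. The members had a median log2 fold of 0.39, with quartiles at -0.028 and 0.87, and all genes tested had a median of 0.083. With library totals in place of TMM both medians dropped, to 0.11 for the members and -0.19 for all genes.

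**Figure D1:**
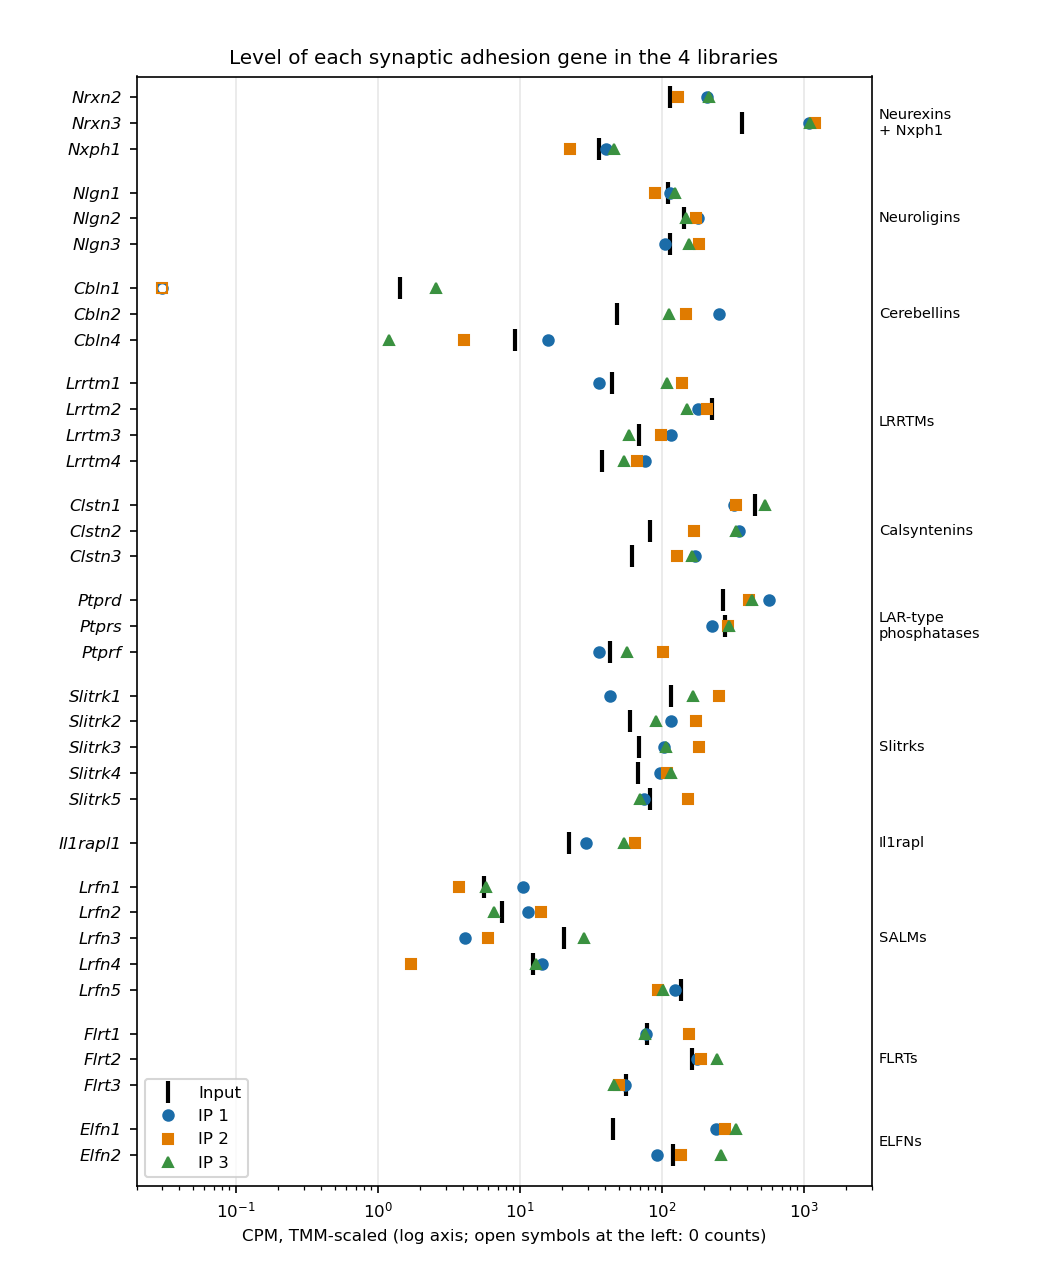
Level of each member in TMM-scaled CPM (log axis), with a black bar for the Input and symbols for IP 1, 2 and 3, grouped by family. Elfn1 and Nrxn3 sit clear of the Input in all 3 IP libraries, and Cbln1 had 0 counts in IP 1 and IP 2.

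Elfn1 (Entrez 243312, chromosome 5, 139907943 to 139974722 on the plus strand in GRCm38) encodes a leucine-rich-repeat protein of the postsynaptic membrane, known for recruiting presynaptic metabotropic glutamate receptors at excitatory synapses onto interneurons. It had 45.1 CPM in the Input, from 752 counts, against 242, 278 and 332 CPM for IP 1, 2 and 3. The 3 IP libraries thus lay within a narrow band, all well above the Input. IP averaged 284 ± 45.0 CPM (SD, n = 3), a 6.30-fold rise, with a log2 fold of 2.66 ± 0.51 (SE) and an adjusted p of 0.0141 by edgeR's quasi-likelihood test. Over 9 alternative analyses its log2 fold ran from 2.38 to 2.74 and its adjusted p from 4.36e-06 to 0.0757, the highest being that of limma-voom, which ended the call. Without IP 1, IP 2 or IP 3 the adjusted p was 7.44e-06, 0.00288 and 0.0130. The somatostatin gene Sst, a marker of cells in which Elfn1 is known to be abundant, had 332 CPM in the Input, against 708, 581 and 746 CPM for the IP libraries (adjusted p = 0.714). The other 2 markers of that class overlapped the Input, Chodl with 0.540 CPM against 0.174, 0.962 and 0 CPM, and Crhbp with 11.1 CPM against 5.58, 19.99 and 20.4 CPM. The part of Sst or Vip class cells in the rise of Elfn1 was not tested.

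Elfn2 (Entrez 207393), the paralog of Elfn1, had 120 CPM in the Input, against 91.9, 137 and 260 CPM for IP 1, 2 and 3. IP 1 lay below the Input and IP 3 above it, so the libraries overlapped. Its log2 fold was 0.44 ± 0.56 (SE), with a 95% interval from -0.73 to 1.61. The difference between the 2 folds was not tested. Within each library, Elfn1 made up 42.2% of the summed Elfn1 and Elfn2 counts per kilobase of exon in the Input (95% Wilson interval 40.2 to 44.3%). Its share was 83.7%, 79.8% and 71.3% in IP 1, 2 and 3. Wilson intervals, here and below, cover counting error within a library and not the spread between libraries. Elfn2 was thus the more abundant paralog in the Input and Elfn1 in every IP library, a comparison that does not depend on how libraries were scaled to each other.

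Near-identical stretches could let reads of one paralog be counted for another, so the coding sequences within each family were compared. Over 45 pairs within families the longest identical run was 11 to 27 bases, with a median of 17, and 0 pairs shared a stretch of 50 bases. The length of the reads was not given in the sources used here. The 120 coding bases around the longest run of the Elfn pair, of 25 bases, are shown because Elfn1 rose and Elfn2 did not pass the test. They lie in exon 2 of both genes, at chr5:139971457-139971576 on the plus strand for Elfn1 and chr15:78674027-78674146 on the minus strand for Elfn2 (GRCm38, GENCODE M21), and 93 of the 120 bases are identical. Capitals mark the shared run:
Elfn1: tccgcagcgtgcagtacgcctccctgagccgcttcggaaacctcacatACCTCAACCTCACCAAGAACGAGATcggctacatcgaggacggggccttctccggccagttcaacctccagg
Elfn2: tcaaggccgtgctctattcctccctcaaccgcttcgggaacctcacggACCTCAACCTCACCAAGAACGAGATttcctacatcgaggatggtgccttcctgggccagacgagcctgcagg

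Of the 2 presynaptic neurexins listed Nrxn3 (Entrez 18191, chromosome 12, 88722876 to 90334935) stood highest. It had 365 CPM in the Input, against 1085, 1203 and 1104 CPM for IP 1, 2 and 3. The IP libraries hardly differed among themselves, with a coefficient of variation of 5.58%, the lowest of the 35 members. The mean was 1131 ± 63.2 CPM (SD, n = 3), with a log2 fold of 1.63 ± 0.37 (SE). Its adjusted p of 0.0565 missed the threshold in edgeR's quasi-likelihood test. It passed in 4 of 9 alternatives, with DESeq2 (adjusted p = 0.00689), limma-voom (0.0232), no low-count filter (0.0222) and without IP 1 (3.96e-05), and the highest adjusted p was 0.167. The log2 fold ran from 1.36 to 1.65 over these alternatives.

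Nrxn2, the other neurexin listed, had 114.5 CPM in the Input, against 206.7, 131 and 215.5 CPM for the IP libraries. All 3 lay above the Input, IP 2 only slightly, and the log2 fold was 0.69 ± 0.50 (SE, adjusted p = 0.9999). Of its exon bases 6.44% overlap a gene on the other strand, and whether such reads were told apart is unknown. Of the 2 neurexins together, Nrxn3 made up 77.7% of counts per kilobase in the Input (95% Wilson interval 76.8 to 78.6%) and 85.2%, 90.96% and 84.9% in IP 1, 2 and 3. The longest coding run that both neurexins share, of 23 bases, is shown because Nrxn3 stood nearest to the threshold among uncalled members, again in capitals within 120 spliced bases. In Nrxn2 these bases run over exons 7 and 8 of transcript Nrxn2-201 (chromosome 19, plus strand) and in Nrxn3 over exons 4 and 5 of Nrxn3-201 (chromosome 12, plus strand), and 95 of the 120 are identical:
Nrxn2: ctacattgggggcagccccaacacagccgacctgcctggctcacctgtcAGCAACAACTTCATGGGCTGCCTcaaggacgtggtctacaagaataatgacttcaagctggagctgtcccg
Nrxn3: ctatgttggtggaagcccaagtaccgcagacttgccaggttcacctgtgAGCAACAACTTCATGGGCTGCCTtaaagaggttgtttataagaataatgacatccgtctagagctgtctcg

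Nxph1, which encodes neurexophilin 1, a secreted ligand of the long neurexins, had 35.98 CPM in the Input, against 40.4, 22.5 and 46.0 CPM for the IP libraries. These values lay on both sides of the Input, and the log2 fold of 0.013 had a 95% interval from -1.68 to 1.70.

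Cerebellins are secreted proteins of the C1q family that bridge neurexins and delta receptors. Cbln2 (Entrez 12405) had 48.0 CPM in the Input, against 255, 148 and 113 CPM for IP 1, 2 and 3. All IP libraries were above the Input, and IP 1 was 2.26 times as high as IP 3. The log2 fold was 1.84 ± 0.59 (SE, adjusted p = 0.447 by edgeR's quasi-likelihood test), with a range of 1.42 to 2.07 over the 9 alternatives, none of which called it.

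Cbln4 had 9.30 CPM in the Input, against 15.7, 4.06 and 1.21 CPM for IP 1, 2 and 3, spread widely on both sides of the Input. Cbln1 had 24 counts in the Input (1.44 CPM), 0 in IP 1 and in IP 2, and 30 in IP 3 (2.59 CPM). A count of 0 allows up to 0.131 CPM in IP 1 and 0.321 CPM in IP 2, for counting error only. The 95% interval of the log2 fold of Cbln1 ran from -7.23 to 5.75, so no difference of a usual size was detectable in these libraries. Cbln2 thus supplied 81.9% of the cerebellin counts per kilobase in the Input (95% Wilson interval 79.3 to 84.2%) and 94.2%, 97.3% and 96.8% in the IP libraries, while the share of Cbln4 was 15.8% in the Input and 5.78%, 2.66% and 1.04%.

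Calsyntenins are postsynaptic cadherin-like proteins, of which Clstn3 is known for binding neurexins and for promoting synapse formation. Clstn2 (Entrez 64085, chromosome 9, 97444395 to 98033181) had 83.1 CPM in the Input, against 350, 170 and 333 CPM for IP 1, 2 and 3. All IP libraries were above the Input, with IP 2 the lowest of them. The log2 fold was 1.77 ± 0.52 (SE, adjusted p = 0.287 by edgeR's quasi-likelihood test). Without IP 2 it was 2.04 and passed (adjusted p = 0.0380), which was the 1 of 9 alternatives that called it. The GABAergic markers were also lowest in IP 2, as given above, and their part in this value was not tested.

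Clstn3 (Entrez 232370, chromosome 6, 124430759 to 124464794) had 62.1 CPM in the Input, against 171, 128 and 164 CPM for IP 1, 2 and 3. Every IP library was above the Input, and the log2 fold was 1.31 ± 0.53 (SE, adjusted p = 0.896). Clstn1, also known as a kinesin cargo adaptor, had 455 CPM in the Input, against 320, 334 and 532 CPM for the IP libraries. IP 1 and IP 2 lay below the Input and IP 3 above it, with a log2 fold of -0.20 ± 0.40 (SE).

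The shares within the calsyntenins were read within each library. Clstn1 made up 78.3% of the family's counts per kilobase in the Input (95% Wilson interval 77.5 to 79.0%) and 41.75%, 56.35% and 55.5% in IP 1, 2 and 3. Clstn2 went from 11.7% to 37.4%, 23.5% and 28.5%, and Clstn3 from 10.02% to 20.9%, 20.2% and 16.0%. These differences in share were not tested. The longest run that Clstn2 and Clstn3 share, of 26 bases, lies in exon 4 of both, at chr9:97582464-97582583 and chr6:124459772-124459891 on the minus strand (GRCm38). In this window 90 of 120 bases are identical, and it is shown because these 2 members lay above the Input together:
Clstn2: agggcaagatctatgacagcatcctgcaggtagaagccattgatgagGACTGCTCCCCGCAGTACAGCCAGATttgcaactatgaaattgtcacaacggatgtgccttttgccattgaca
Clstn3: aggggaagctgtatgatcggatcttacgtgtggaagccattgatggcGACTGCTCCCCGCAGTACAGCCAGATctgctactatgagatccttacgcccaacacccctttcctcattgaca

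**Figure D2:**
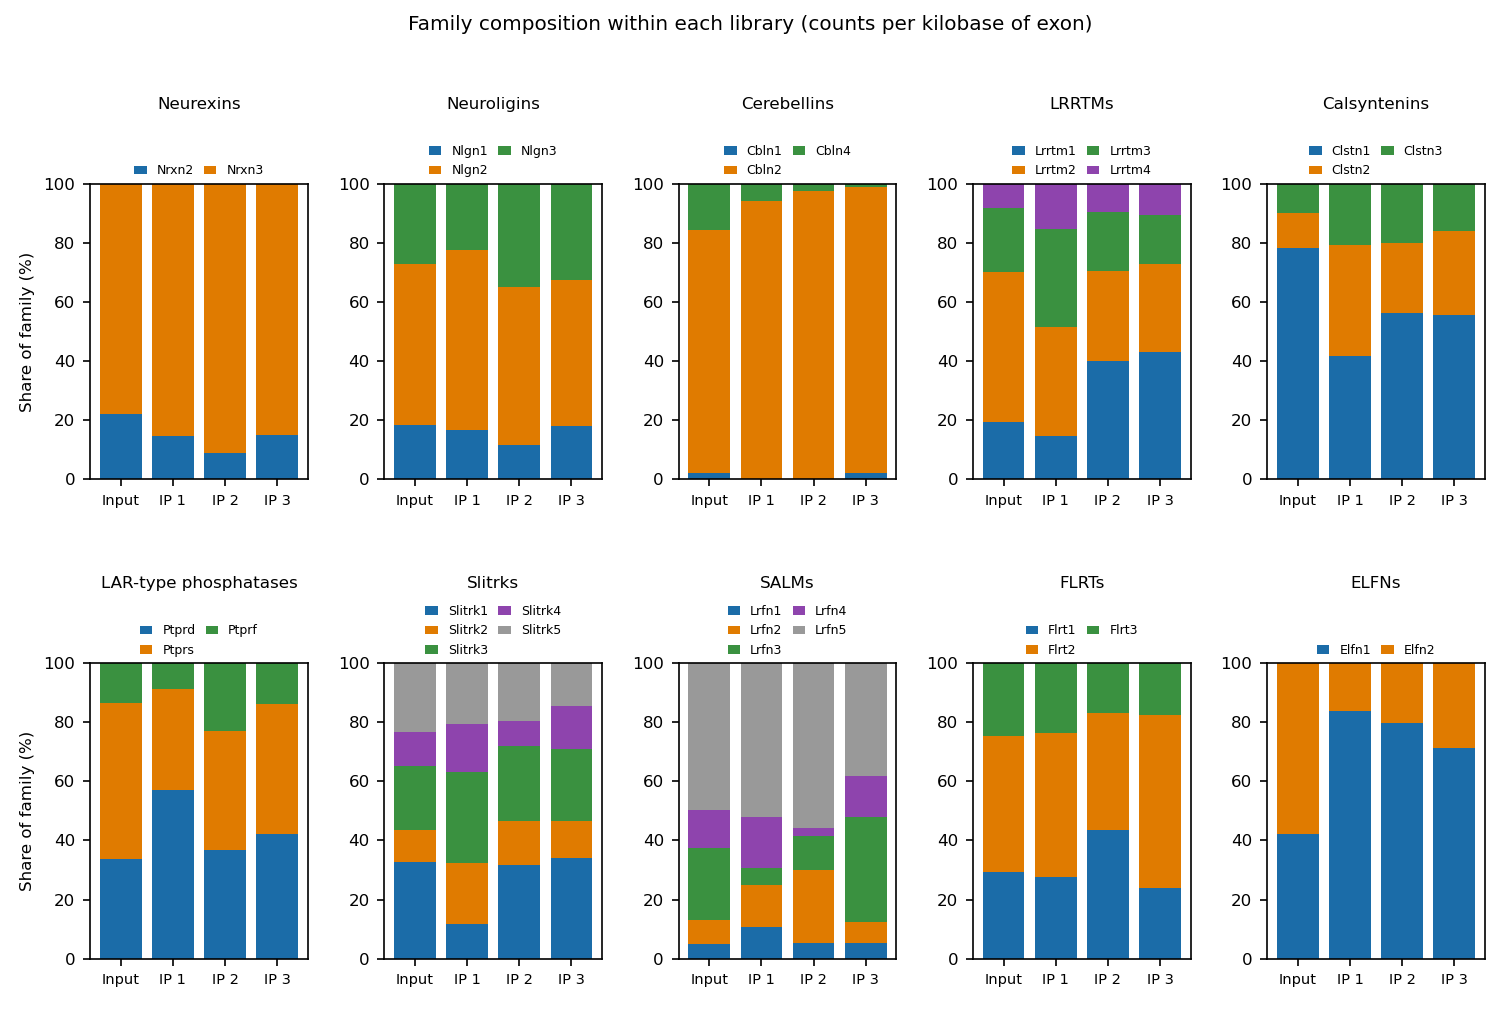
Share of each member in its family's counts per kilobase of exon, in percent, within the Input and IP 1, 2 and 3. The share of Elfn1 went from 42.2% in the Input to between 71.3% and 83.7% in IP, and that of Clstn1 from 78.3% to between 41.75% and 56.35%.

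Neuroligins, the postsynaptic receptors of neurexins, showed no called member and small folds. Nlgn2, the form known from inhibitory synapses, had 143 CPM in the Input, against 180, 173 and 147 CPM for IP 1, 2 and 3. It lay just above the Input in all 3, with a log2 fold of 0.22 ± 0.47 (SE) and a 95% interval from -0.76 to 1.20, and with library totals in place of TMM the fold was -0.056. Nlgn1, the form known from excitatory synapses, had 111 CPM in the Input, against 114, 89.0 and 124 CPM for the IP libraries, on both sides of it, and 9.16% of its exon bases overlap a gene on the other strand. Nlgn3, found at both kinds of synapse, was at 113 CPM and at 106, 182 and 155 CPM. Of the exon bases of Nlgn3 41.24% are shared with another annotated gene model on the same strand, so its counts are uncertain. Nlgn2 made up 54.7% of the family's counts per kilobase in the Input (95% Wilson interval 53.4 to 56.0%) and 60.9%, 53.3% and 49.5% in IP, so its share differed from the Input by no more than the IP libraries differed from each other.

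LRRTMs are leucine-rich-repeat proteins of excitatory postsynapses. Lrrtm2, the most abundant in the Input, was at 228 CPM there and at 180, 209 and 150 CPM in IP 1, 2 and 3. It was 1 of the 3 members below the Input in all IP libraries, but its log2 fold of -0.34 ± 0.44 (SE, adjusted p = 0.9999) was far from the threshold. Lrrtm1 had 44.4 CPM in the Input, against 36.3, 138 and 109 CPM for the IP libraries. IP 1 lay below the Input and the other 2 IP libraries well above it, a 3.82-fold spread within IP. Lrrtm3 was at 69.4 CPM and at 116, 98.2 and 58.9 CPM, on both sides of the Input. Lrrtm4, which binds heparan sulfate proteoglycans, was at 37.7 CPM in the Input, against 76.2, 66.8 and 54.1 CPM, above it in all 3 (log2 fold 0.80 ± 0.69), and 25.10% of its exon bases overlap another gene. The share of Lrrtm2 among LRRTM counts per kilobase was 50.5% in the Input (95% Wilson interval 49.2 to 51.7%) and 36.7%, 30.4% and 29.8% in IP.

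The LAR-type receptor phosphatases form the other presynaptic hub. Ptprd had 269 CPM in the Input, against 573, 412 and 430 CPM for IP 1, 2 and 3. All 3 IP libraries were above the Input, with a log2 fold of 0.81 ± 0.40 (SE) and an unadjusted p of 0.0584 (adjusted p = 0.9999, edgeR). Ptprs had 278 CPM in the Input, against 226, 295 and 296 CPM for the IP libraries. Its log2 fold of -0.031 had a 95% interval from -0.89 to 0.83, and it was the 1 member whose interval lay wholly within a 2-fold change. Ptprf was at 43.3 CPM and at 35.9, 102 and 56.6 CPM, with IP 2 apart from the others. Ptprs was the leading member in the Input, with 52.9% of counts per kilobase (95% Wilson interval 51.9 to 53.9%), and had 34.2%, 40.25% and 44.1% in the IP libraries, whereas Ptprd had 33.6% in the Input and 56.9%, 36.9% and 42.1% in IP.

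Slitrks are postsynaptic partners of these phosphatases, of which Slitrk3 is known for acting at inhibitory synapses. None of the 5 was called, and 3 lay above the Input in all IP libraries. Slitrk3 had 69.3 CPM in the Input, against 103, 183 and 108 CPM for IP 1, 2 and 3 (log2 fold 0.92 ± 0.56). Slitrk2 was at 59.5 CPM and at 116, 175 and 91.3 CPM (log2 fold 1.10 ± 0.58), and Slitrk4 at 67.8 CPM and at 97.2, 108 and 116 CPM (0.66 ± 0.56). These 3 were thus moderately above the Input, with Slitrk4 the most even among IP libraries.

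Slitrk1 had 117 CPM in the Input, against 43.4, 252 and 167 CPM for IP 1, 2 and 3. It differed 5.81-fold within IP, from below the Input in IP 1 to above it in IP 2, and its share of the Slitrk counts per kilobase was 11.7% in IP 1 against 31.8% and 34.1% in IP 2 and 3. Slitrk5 was at 82.03 CPM and at 75.4, 152 and 70.6 CPM. Of the 5 Slitrks 4 were highest in IP 2. Among the IP libraries the summed excitatory, astrocyte and endothelial markers were also highest there. So were the sums for oligodendrocytes, oligodendrocyte precursors and the Pvalb class of interneurons. Sums for GABAergic neurons, the Vip, Sst and Lamp5 classes and microglia were highest in IP 1 or IP 3. Single markers were mixed, with 4 of 6 excitatory, 3 of 6 astrocyte and 3 of 6 endothelial markers highest in IP 2. Most of the astrocyte sum in IP 2 was Slc1a2 (2457 CPM), and most of the endothelial sum was Slc2a1 (307 CPM). The endothelial markers Cldn5, Pecam1 and Cdh5 were lowest in IP 2 among the IP libraries. The part of any of these cell types in the Slitrk values was not tested.

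Il1rapl1, a postsynaptic partner of Ptprd known from intellectual disability, had 22.3 CPM in the Input, against 29.3, 65.3 and 54.0 CPM for IP 1, 2 and 3. All lay above the Input, IP 1 only slightly, with a log2 fold of 1.15 ± 0.83 (SE, adjusted p = 0.9999).

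The SALMs, encoded by Lrfn1 to Lrfn5, had 0 called members, and 4 of the 5 were low in every library. Lrfn5, which binds LAR-type phosphatases, had 137 CPM in the Input, against 123, 94.6 and 102 CPM for IP 1, 2 and 3. It lay below the Input in all 3, with a log2 fold of -0.36 ± 0.50 (SE). Lrfn3 had 20.4 CPM in the Input, against 4.14, 5.99 and 28.5 CPM for the IP libraries, and Lrfn4 had 12.4 CPM against 14.4, 1.71 and 13.1 CPM. Lrfn3 was low in IP 1 and IP 2 and Lrfn4 in IP 2 alone, spreads of 6.87-fold and 8.43-fold within IP. Lrfn1 was at 5.58 CPM in the Input and 3.74 to 10.5 CPM in IP, and Lrfn2, which binds the scaffold PSD-95, at 7.56 CPM and 6.55 to 14.0 CPM. The 95% interval of the log2 fold ran from -3.15 to 1.82 for Lrfn3, the narrowest of these 4, so differences of several fold were not detectable.

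FLRTs bind latrophilins across the cleft. Flrt2 had 164 CPM in the Input, against 178, 188 and 244 CPM for IP 1, 2 and 3, above it in all 3 by small margins (log2 fold 0.31 ± 0.45, 95% interval -0.64 to 1.26). Flrt3 was at 55.9 CPM and at 55.0, 50.04 and 46.1 CPM, below the Input in all 3 by less than its interval could resolve (-1.58 to 1.28). Flrt1 was at 79.3 CPM and at 77.7, 157 and 76.3 CPM, with IP 2 the library that stood apart.

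**Figure D3:**
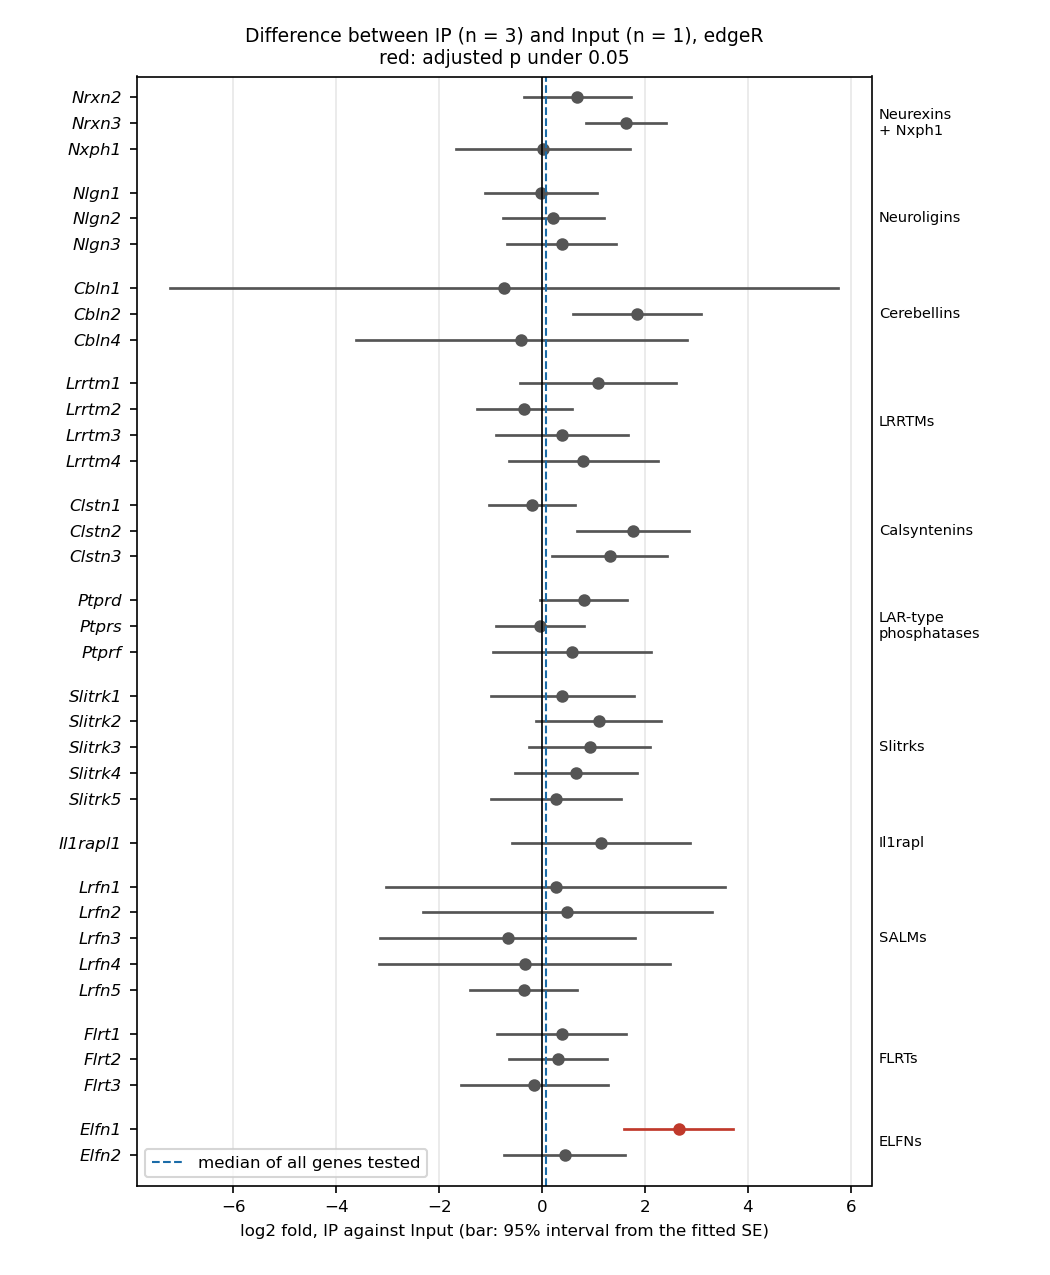
Log2 fold of IP (n = 3) against Input (n = 1) for each member, with 95% intervals from a standard error derived from edgeR's F statistic. Elfn1 (2.66) is the 1 called member, in red, and the dashed line marks the median of all genes tested (0.083).

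Intervals show how much the design could resolve. For 18 of 35 members the 95% interval of the log2 fold lay within -2 and 2, so changes beyond 4-fold were outside it, and for 1 it lay within -1 and 1. A member that missed the threshold is therefore not shown to have been at the same level in both fractions.

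Per kilobase of exon, a scale on which genes can be compared, the order of the members differed between the fractions. In the Input the highest levels were those of Clstn1 (97.5 CPM per kilobase), Lrrtm2 (37.8) and Nrxn3 (29.0), and Elfn1 was the 21st of 35 (10.8). In IP the highest mean levels were those of Nrxn3 (89.7 ± 5.01 CPM per kilobase, SD, n = 3), Clstn1 (84.8 ± 25.4), Elfn1 (68.1 ± 10.8) and Cbln2 (59.4 ± 25.6). The IP libraries of neighbours in this order overlapped, and those of Clstn1 and Cbln2 overlapped with all of the others named, so the order among the 4 is not resolved, except that Elfn1 lay below Nrxn3 in every IP library. Clstn2 went from the 13th place (14.6 CPM per kilobase) to the 5th (49.96 ± 17.49), and Clstn3 from the 17th (12.5) to the 7th (31.0 ± 4.67). Lrrtm2 went from the 2nd place to the 8th (29.8 ± 4.95). Exon lengths were those of all GENCODE exons of a gene joined, which overstates the length of genes with many alternative exons.

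**Figure D4:**
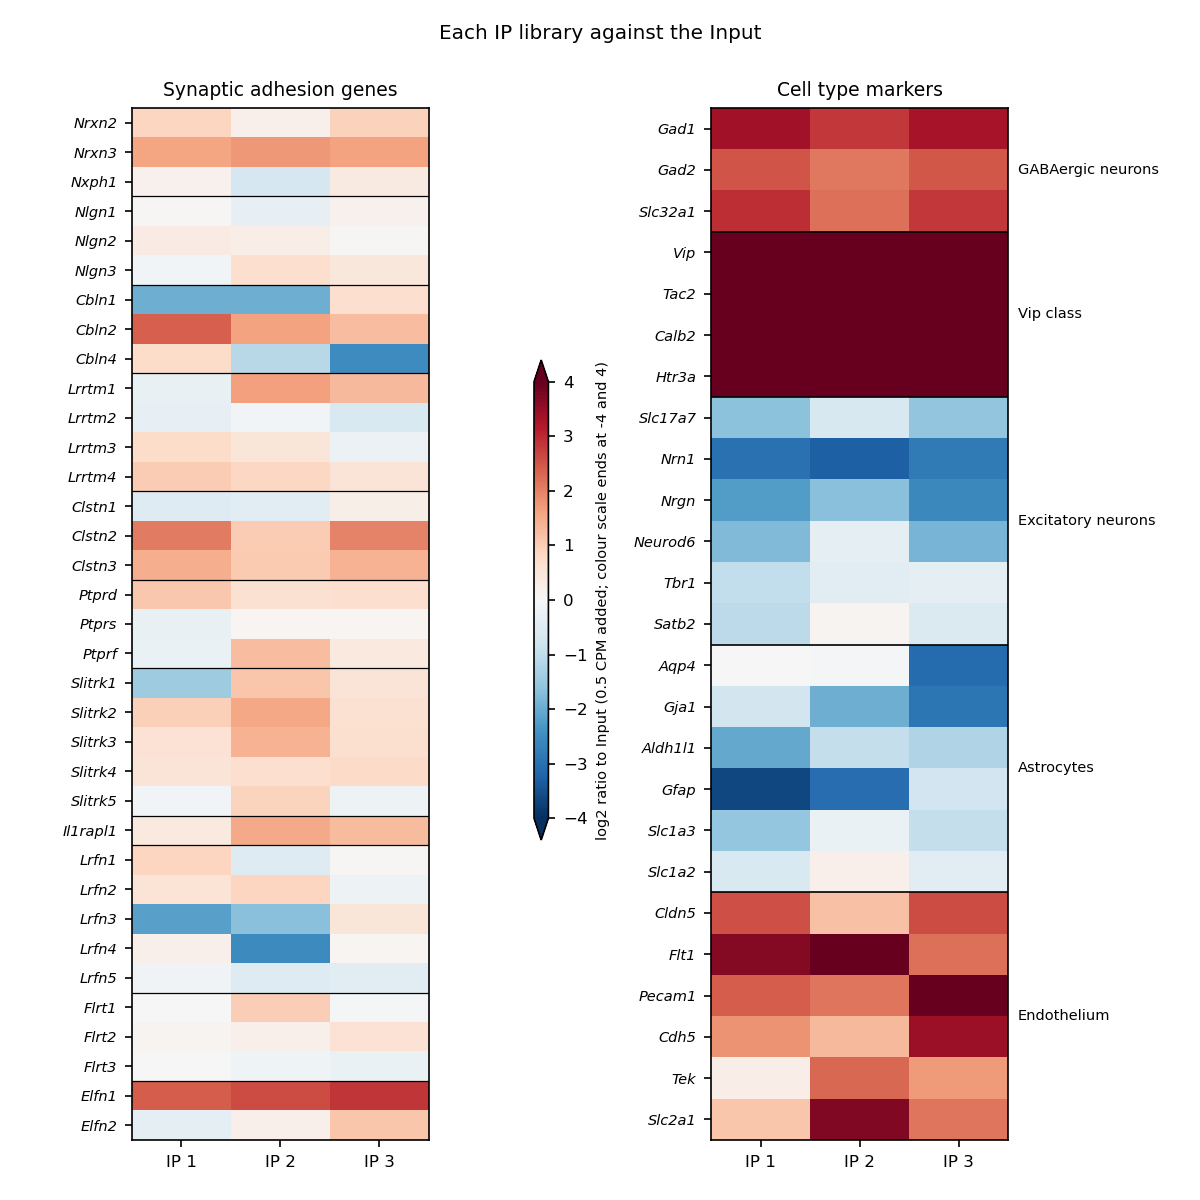
Log2 ratio of each IP library to the Input, with 0.5 CPM added, for the 35 members (left) and for markers of 5 cell classes (right), with family borders as lines. Elfn1, Nrxn3, Cbln2, Clstn2 and Clstn3 are among the 14 members above the Input in every column. Slitrk1, Lrrtm1 and Cbln4 are among the 18 that overlap it.

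The 3 IP libraries were similar in how many members they placed highest, with 12 members highest in IP 1, 12 in IP 2 and 11 in IP 3. Against the Input, the median log2 ratio of the members (0.5 CPM added) was 0.22 in IP 1, 0.62 in IP 2 and 0.47 in IP 3, where that of all genes tested was -0.066, -0.10 and -0.088. Members above the Input numbered 21, 24 and 27 of 35 in IP 1, 2 and 3. The coefficient of variation over IP libraries was highest for Cbln1 (173.2%), Cbln4 (109.8%), Lrfn3 (105.2%), Lrfn4 (71.7%) and Slitrk1 (68.1%), of which only Slitrk1 was above 100 CPM in the Input.

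Of 47 partner and related cell-surface genes on a separate list, among them latrophilins, teneurins, netrin-G ligands, neuronal pentraxins and group III metabotropic receptors, 42 passed the low-count filter and 0 were called. At an unadjusted p under 0.05, 1 lay above the Input in all 3 IP libraries (3.12% of all genes) and 1 below it (1.23%), and DESeq2 and limma-voom called 0 and 0. Their median log2 fold was -0.24, and 7 of the 42 lay above the Input in all IP libraries (19.7% of all genes) and 17 below it (24.1% of all genes). The 2 most abundant were Cadm2, an adhesion protein of axons (log2 fold 0.25 ± 0.39), and the latrophilin gene Adgrl1 (0.18 ± 0.37). Receptors of 2 members were on this list and are named for their role, chosen after their values were seen. The receptor of ELFN1 known best, encoded by Grm7, had 33.5 CPM in the Input, against 41.0, 17.5 and 54.7 CPM for IP 1, 2 and 3. Grid1, which encodes a delta receptor bound by cerebellins, was at 17.6 CPM and at 16.6, 11.01 and 42.4 CPM. Both lay on either side of the Input.

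Of 27 genes of intracellular scaffolds, which anchor these proteins inside the membrane, 27 passed the filter and 0 were called. At an unadjusted p under 0.05, 4 of the 27 lay above the Input in all 3 IP libraries (3.12% of all genes) and 3 below it (1.23%), and DESeq2 and limma-voom called 0 and 0. Without IP 1, Shank1 and Shank2 passed. Their median log2 fold was 0.050, next to 0.083 for all genes. The most abundant were Shank1, a scaffold of excitatory postsynapses (887 CPM in the Input, against 1061, 1854 and 2063 CPM for IP 1, 2 and 3, log2 fold 0.90 ± 0.38, adjusted p = 0.939), and Dlgap1, a partner of PSD-95 (log2 fold 0.26 ± 0.33).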

How the data were processed

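The authors deposited 1 table of whole-number counts per gene for each of 4 libraries, and the submitters' processing notes name STAR 2.0.0e, HTSeq and the mouse build mm10, while the deposited files are named after another counter, subread, so the counter and its handling of overlapping genes are uncertain; strand setting, read length and annotation are not given in the sources used here. Rows without a symbol (9 of 24100, at most 0.0221% of counts) were kept under their Entrez number. The 35 members and all lists were chosen with earlier results of these data known. In R 4.3.3, genes kept by edgeR's filterByExpr (minimum count 10) were scaled by TMM and tested, IP against Input, by edgeR 4.0.16's quasi-likelihood test with Benjamini-Hochberg adjustment over all genes tested. Only the 3 IP libraries give an estimate of spread (residual degrees of freedom: 2), which the single Input was assumed to share. In edgeR, each gene's spread was drawn towards a value shared across genes (prior degrees of freedom: 16.96). The edgeR p-values, SEs and intervals of folds (18.96 degrees of freedom) thus rest more on that shared spread than on a member's own libraries. DESeq2 1.42.0, limma-voom (limma 3.58.1), other scalings, filters and left-out IP libraries were alternatives. Exon lengths, positions and coding sequences came from GENCODE M21 (GRCm38), which may differ from the annotation counted. All members were named, with the most abundant 2 genes of each related list. Intervals of shares and limits from 0 counts cover counting error only.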

Additional observations from a re-analysis of the deposited data

How the results depend on the processing

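Across all genes 67 were called, against 182 with DESeq2, 108 without the low-count filter, 39 at an adjusted p under 0.01 and 90 to 210 when 1 IP library was left out (210 without IP 1, 105 without IP 2). The split of 60 higher and 7 lower calls became 50 and 15 with library totals and 37 and 14 with limma-voom. Of the members 1 was called, against 2 with DESeq2, 2 without the filter and 0 at an adjusted p under 0.01. Leaving out 1 IP library gave 1 to 2 called members. The cause of these differences was not tested. Of 314 member values under alternatives, 292 kept direction and side of the threshold and 16 changed direction, none of them of a member called in any setting. With library totals the log2 fold was -0.26 for Nxph1, -0.056 for Nlgn2 and -0.0040 for Slitrk5. It was -0.10 for Nxph1 under the stricter filter (mean of 5 CPM or more) and -0.21 for Slitrk1 with limma-voom. When 1 IP library was left out it ran from -0.20 to 0.26 for Nxph1, -0.13 to 0.10 for Nlgn1, -1.84 to 0.091 for Cbln4, -0.096 to 0.066 for Ptprs, -0.16 to 0.82 for Slitrk1, -0.17 to 0.47 for Slitrk5, -0.25 to 0.55 for Lrfn1, -0.75 to 0.16 for Lrfn4, -0.044 to 0.56 for Flrt1 and -0.070 to 0.70 for Elfn2. Cbln1 did not reach a mean of 5 CPM and had no value there. No paired analysis was possible because the single Input shares at most 1 number with the IP libraries. The 95% intervals were widest for Cbln1, Cbln4 and Lrfn1 to Lrfn4, whose IP libraries also differed among themselves; the part of depth in this was not tested.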
